A study of Mus musculus with 12 samples.

Results

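The genes described here are 4 butyrophilin-like genes (Btnl1, Btnl2, Btnl4 and Btnl6) and both mouse Sectm1 genes (Sectm1a and Sectm1b), which code for cell surface proteins through which the gut epithelium addresses lymphocytes. They were taken by symbol, 6 of the 54532 genes in the deposited table, and all 6 passed the filter on low values that left 24102 genes for testing. They were chosen by family and, in part, selected on the measured difference in Sectm1b counts between colitic mice of the 2 genotypes, so for these genes the comparison of colitic genotypes is given below as a description without a test.

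Butyrophilin-like proteins belong to the immunoglobulin superfamily and are related to the B7 family of T cell ligands. In the mouse intestine Btnl1 and Btnl6 form a heteromer on enterocytes that engages the Vγ7 T cell receptor and maintains the γδ T cells lying between epithelial cells, and Btnl4 is a close relative of Btnl6 that can also pair with Btnl1. Btnl2 restrains T cell activation. SECTM1 proteins are ligands of CD7 on T cells and natural killer cells, Sectm1a is also known to bind the costimulatory receptor GITR (Tnfrsf18), and human SECTM1 is induced by interferon.

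Whole colon RNA was sequenced from 12 mice, 3 in each of 4 groups. All mice were homozygous for a floxed Tmem173 gene, which codes for STING, and all received 5 tamoxifen injections, so no group was wild type or free of tamoxifen, although the labels call the floxed mice without Cre WT. Tmem173fl/fl mice carried no Cre. Tmem173iΔmye mice (CRE in the labels) carried in addition a tamoxifen-inducible Cre in the Lyz2 locus, which drives it in myeloid cells. Untreated mice of each genotype were compared with mice on 7 days of dextran sulfate sodium (DSS), a polymer toxic to the lining of the colon. The study's methods say that the 3 samples of a group were selected at random; replicates are numbered 1 to 3, except for 1, 2 and 5 among colitic Tmem173iΔmye mice.

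Library totals ran from 13823237 to 18718915 counts. Levels are given as CPM, counts scaled to the library total with edgeR's TMM factors, and as FPKM, which also divides by gene length, where genes are compared with each other. Tmem173 itself was at 14.4 to 47.8 CPM, and the colitic genotypes overlapped in it (log2 difference of -0.28 with a standard error (SE) of 0.26, edgeR adjusted p = 0.602), so these counts of the whole gene do not show the deletion. The epithelial marker Epcam was at 510.1 to 2042 CPM in the 12 libraries. Replicate 5 of the colitic Tmem173iΔmye group stood apart in some genes of position along the gut, which were picked for mention after their values were seen. Hoxb13 was at 196 CPM there against 28.6 and 21.1 CPM in the other libraries of its group, 0.61 to 4.93 CPM in colitic Tmem173fl/fl and 87.2 to 252 CPM in the 6 untreated libraries, so it lay at the untreated level. Hoxd13 was at 183 CPM there, above the 1.77 to 88.0 CPM of the other 11 libraries. Hoxa13, at 78.9 CPM there, lay inside the untreated range. It was at 17.2 to 25.0 CPM in colitic Tmem173fl/fl and at 42.6 to 87.7 CPM in all other libraries. Hoxa13 and Hoxb13 were thus lowest in the colitic Tmem173fl/fl group. The intestinal factor Cdx2 was at 31.4 CPM against 92.1 to 277 CPM in the other 11 libraries. This library and replicate 3 of each untreated group also held 1225 to 1839 CPM of Xist, the RNA of the inactive X chromosome, which was at no more than 0.54 CPM in the other 9. Summed transcripts of 7 pancreas genes ran from 103 to 9428 CPM and overlapped between all groups. The part of these differences in the results was not tested, and the Btnl values that rest on replicate 5 are given with and without it.

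The Btnl genes lie together on chromosome 17 within the major histocompatibility complex region and the Sectm1 genes side by side on chromosome 11 (GRCm38, as deposited). Btnl2 (ENSMUSG00000024340, chr17:34354822-34369493) and Btnl1 (ENSMUSG00000062638, chr17:34377132-34385776) are on the plus strand. Btnl4 (ENSMUSG00000058435, chr17:34469042-34475937) and Btnl6 (ENSMUSG00000092618, chr17:34507804-34517352) are on the minus strand, as are Sectm1b (ENSMUSG00000039364, chr11:121053458-121063569) and Sectm1a (ENSMUSG00000025165, chr11:121067407-121081220). No member shares exonic bases with another gene in GENCODE M21. Stretches of 100 bases were compared between transcripts to see where reads could be split between copies. Of the 2278 such stretches of Btnl4, 72 (3.16%) also occur in the pseudogenes Btnl5-ps or Btnl7-ps, and of the 1652 of Btnl6, 1 occurs in Btnl7-ps. The other 4 members share none.

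Btnl4 and Btnl6 were the members whose levels followed each other most closely, and the 250 bases before their starts in RefSeq are near copies. The RefSeq promoter table (GRCm38.p6) held 5 of the 6 members, Sectm1a being the exception. The windows of Btnl4 (chr17:34475938-34476187) and Btnl6 (chr17:34517353-34517602) were identical at 228 of 252 aligned positions (90.5%), with 20 mismatches and 4 gaps, whereas the other 9 pairs of members were identical at 45.7% to 50.4%. They are printed 5′ to 3′ on the minus strand, with the bases that differ between them in capitals. GENCODE M21 places the start of Btnl4 further upstream, at base 34477318, so its window lies inside the M21 gene.
Btnl4: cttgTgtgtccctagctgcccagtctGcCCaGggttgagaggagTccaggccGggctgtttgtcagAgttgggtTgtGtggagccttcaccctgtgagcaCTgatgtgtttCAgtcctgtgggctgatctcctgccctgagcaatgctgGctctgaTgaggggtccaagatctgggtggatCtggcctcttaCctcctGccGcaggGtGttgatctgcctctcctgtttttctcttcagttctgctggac
Btnl6: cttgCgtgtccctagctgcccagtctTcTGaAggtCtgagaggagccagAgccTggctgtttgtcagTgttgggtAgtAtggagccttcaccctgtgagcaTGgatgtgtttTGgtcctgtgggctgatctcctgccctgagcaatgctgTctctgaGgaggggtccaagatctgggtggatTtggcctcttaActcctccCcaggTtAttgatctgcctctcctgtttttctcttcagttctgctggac

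The windows were searched on both strands for sets of letters tied to the gut epithelium or to interferon, of which 3 are given here, namely HNF4 (CAAAGTNCA or CAAAGNCCA), CDX (CATAAA or CAATAAA) and the interferon-stimulated response element (GAAA, any 2 bases, GAAA). Of 32851 RefSeq promoter windows of the same length, 2.5%, 14.3% and 2.98% held them. Among the 5 members these gave 1 match, the HNF4 letters 41 to 33 bases before the start of Btnl2 (chr17:34354572-34354821, plus strand), in capitals below. The window of Sectm1b (chr11:121063570-121063819, minus strand), the member with the highest level, is printed with it and held none of these letters. A match describes the letters alone, and a lack of matches says nothing about the factors.
Btnl2: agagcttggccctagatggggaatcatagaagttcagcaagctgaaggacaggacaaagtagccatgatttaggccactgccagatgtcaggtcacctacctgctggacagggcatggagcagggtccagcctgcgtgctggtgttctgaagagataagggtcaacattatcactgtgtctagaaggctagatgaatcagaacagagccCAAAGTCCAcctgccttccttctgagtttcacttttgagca
Sectm1b: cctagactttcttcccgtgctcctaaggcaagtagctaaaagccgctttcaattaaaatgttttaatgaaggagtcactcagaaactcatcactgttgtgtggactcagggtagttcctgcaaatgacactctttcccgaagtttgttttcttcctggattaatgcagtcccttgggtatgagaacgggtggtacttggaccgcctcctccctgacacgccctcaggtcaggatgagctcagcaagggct

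In the untreated colon all 6 genes were expressed and their mean levels stood in the same order in both genotypes. In untreated Tmem173fl/fl mice Sectm1b stood highest at 148 ± 22.1 FPKM (SD, n = 3), and its mean over all libraries lay at the percentile 98.5 of tested genes. Btnl6 followed at 61.4 ± 8.92 FPKM, Btnl4 at 43.7 ± 0.815 FPKM, Btnl1 at 33.7 ± 8.94 FPKM, Sectm1a at 15.0 ± 3.27 FPKM and Btnl2 at 8.68 ± 2.20 FPKM. No neighbours in this order overlapped in their ranges. Untreated Tmem173iΔmye mice kept the order, with Sectm1b at 140 ± 10.8 FPKM and Btnl2 at 7.10 ± 0.762 FPKM at its ends. There only Btnl4 (46.5 ± 8.49 FPKM) and Btnl1 (36.5 ± 7.14 FPKM) overlapped.

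DSS changed this order in Tmem173fl/fl mice. Btnl6 (39.4 ± 7.27 FPKM) had the highest mean in the colitic Tmem173fl/fl group, then Sectm1b (33.8 ± 2.36 FPKM), Btnl4 (28.0 ± 5.91 FPKM) and Btnl1 (23.4 ± 2.92 FPKM), with each of these overlapping the next. Btnl2 (5.89 ± 1.46 FPKM) and Sectm1a (2.69 ± 1.66 FPKM) were lowest and did not overlap. In colitic Tmem173iΔmye mice the means stood in the untreated order, from Sectm1b at 102 ± 15.8 FPKM to Btnl2 at 9.88 ± 5.53 FPKM, but every pair of neighbours overlapped.

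The first comparison asks what DSS colitis does to these genes where STING is intact. Both Sectm1 genes fell strongly in the colon of Tmem173fl/fl mice, and the Btnl genes were lower by much less. Sectm1b was at 444, 471 and 348 CPM in untreated Tmem173fl/fl mice and at 91.5, 101 and 87.2 CPM in colitic ones. Its groups were far apart, with a mean 4.52 times higher without DSS and a log2 change of -2.11 (SE 0.16, edgeR adjusted p = 1.035e-05). Sectm1a was at 32.6, 24.2 and 21.5 CPM in untreated and at 3.85, 7.57 and 2.11 CPM in colitic Tmem173fl/fl mice. The colitic values rest on 31 to 160 counts, none of them reaches the untreated range, and the fitted log2 change was -2.44 (SE 0.39, edgeR adjusted p = 0.00092). Each Sectm1 call held in all 17 alternatives run at the same threshold, with log2 changes from -3.06 (without colitic replicate 2) to -2.13 for Sectm1a and from -2.22 to -1.97 for Sectm1b. The colitic Tmem173fl/fl libraries are also part of the contrast that chose Sectm1b, so its fall here is not independent of that choice.

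Of the Btnl genes, Btnl4 and Btnl6 passed the adjusted p but not the fold limit in Tmem173fl/fl mice, and Btnl1 and Btnl2 passed neither. Btnl6 was at 115, 124 and 92.2 CPM untreated and at 54.2, 72.5 and 78.1 CPM with DSS. All colitic values lie under the untreated ones, with a log2 change of -0.62 (SE 0.17, edgeR adjusted p = 0.01717). Btnl4 was at 78.4, 80.7 and 77.6 CPM untreated and at 40.6, 45.6 and 60.1 CPM with DSS. Its untreated libraries were nearly equal, and the log2 change of -0.63 (SE 0.16, edgeR adjusted p = 0.01082) was close to that of Btnl6.

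Btnl1, the partner chain of Btnl6, was at 63.5, 81.9 and 47.5 CPM untreated and at 37.3, 44.5 and 47.7 CPM with DSS in Tmem173fl/fl mice. The highest colitic library lies just above the lowest untreated one, and the log2 change was -0.50 (SE 0.19, edgeR adjusted p = 0.06547). Btnl2 was at 19.3, 29.8 and 20.0 CPM untreated and at 11.8, 19.2 and 14.3 CPM with DSS. Its groups do not overlap but nearly touch, with a log2 change of -0.54 (SE 0.24, edgeR adjusted p = 0.1051). Single libraries left out gave -0.67 to -0.30 for Btnl1 and -0.77 to -0.32 for Btnl2.

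Counted together, 2 of 6 members were called lower and 0 higher with DSS in Tmem173fl/fl mice, where 7.61% of all tested genes were called lower and 14.9% higher, 22.5% in all. By adjusted p alone 4 of 6 were lower, against 16.0% of tested genes, and 5 of 6 had groups that did not overlap with the colitic one lower, against 25.4%. Sectm1b is in each of these counts, which are therefore not independent of the contrast that chose it. The median log2 change of the members was -0.62 and that of all tested genes 0.03. The calls of the Btnl genes by adjusted p depended on the setting. Btnl4 lost its own in 2 of 17 alternatives, a fit of all 12 libraries (edgeR adjusted p = 0.196) and one leaving out colitic Tmem173fl/fl replicate 1 (0.054). Btnl6 lost its own in 4 of 17, those same ones (0.221 and 0.077), one leaving out untreated Tmem173fl/fl replicate 2 (0.062) and limma with a pseudocount of 0.1 (0.064). Btnl1 passed in 4 of 17, with the lowest edgeR adjusted p (0.0176) when untreated Tmem173fl/fl replicate 3 was left out, and Btnl2 in 2 of 17. Leaving out all libraries high in Xist drops that same replicate alone in this comparison, so this fit stands among the 17 under both names.

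**Figure D1:**
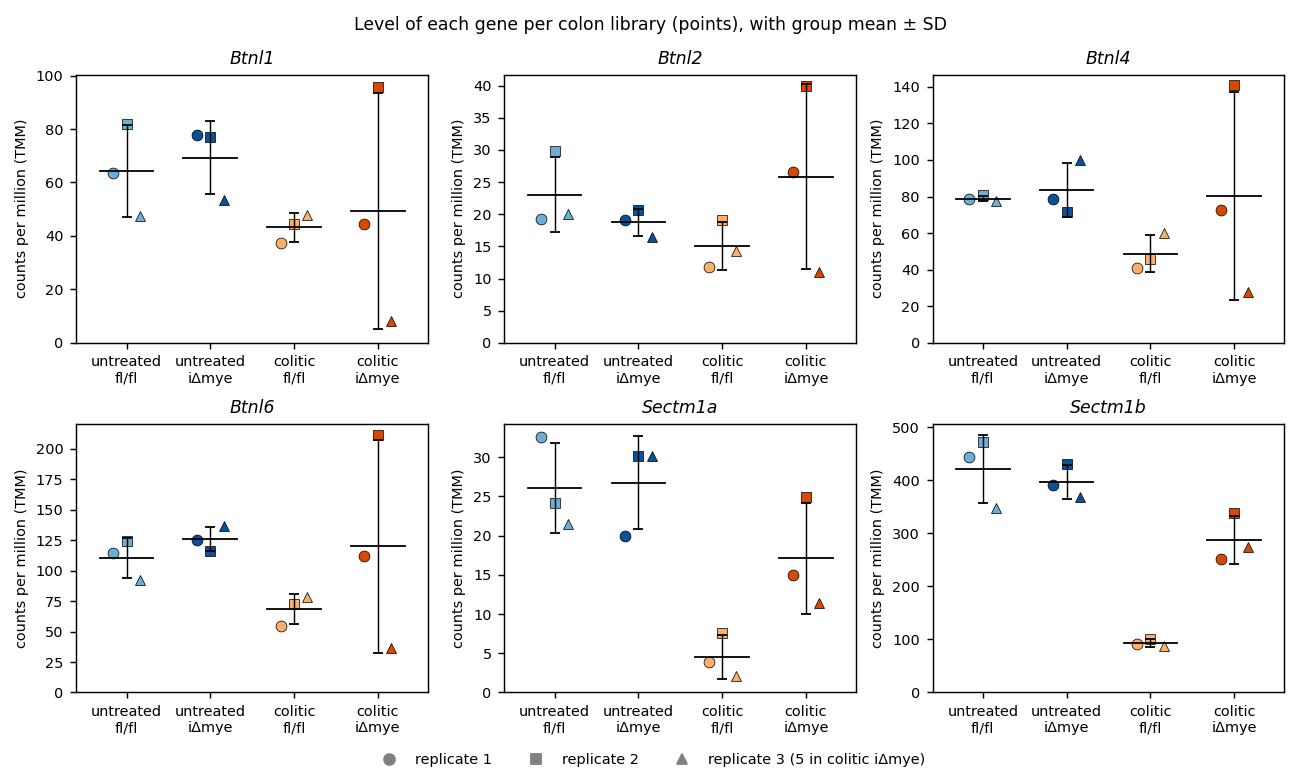
Level of the 6 genes in each of the 12 libraries in TMM-scaled CPM on a linear axis, with the group mean (bar) and SD (whiskers). Sectm1a and Sectm1b of colitic Tmem173fl/fl mice lie under every other group, and the 4 Btnl genes spread widely in colitic Tmem173iΔmye mice, with replicate 2 highest and replicate 5 lowest.

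The same question in mice with myeloid deletion of Tmem173 gave no call. In the Tmem173iΔmye colon 0 of 6 members passed the threshold after DSS, where 2.08% of all tested genes did and 0.597% were called lower. By unadjusted p under 0.05 in edgeR 1 member passed, Sectm1b, and DESeq2 called 0 of 6. The colitic libraries of this comparison are likewise part of the contrast that chose Sectm1b, so its values here are not independent of that choice. Sectm1b was at 392, 431 and 368 CPM untreated and at 251, 339 and 274 CPM with DSS. It was the 1 member whose groups did not overlap, as was so with the colitic group lower for 9.41% of genes, and its mean was 1.38 times higher without DSS (log2 change of -0.47, SE 0.20, edgeR adjusted p = 0.292). Sectm1a was at 19.9, 30.2 and 30.1 CPM untreated and at 15.0, 25.0 and 11.4 CPM with DSS. Replicate 2 with DSS lies inside the untreated range, and the log2 change was -0.65 (SE 0.31, edgeR adjusted p = 0.3518), with -1.01 to -0.40 over single libraries left out.

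The Btnl genes spread over a wider range among the 3 colitic Tmem173iΔmye libraries than the means of the 4 groups did. Btnl6 was at 125, 116 and 137 CPM untreated and at 112, 211 and 36.7 CPM with DSS. Btnl4 was at 78.9, 71.4 and 100 CPM untreated and at 72.5, 141 and 27.9 CPM with DSS. In both genes replicate 1 lay close to the untreated level, replicate 2 above the other 11 libraries and replicate 5 under the other 11, so the log2 changes of -0.07 (SE 0.46) and -0.06 (SE 0.44) average opposite deviations.

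Btnl1 was at 77.7, 76.9 and 53.4 CPM in untreated Tmem173iΔmye mice and at 44.4, 95.9 and 8.07 CPM with DSS (log2 change of -0.49, SE 0.61). Replicate 5 rests on 133 counts, while replicate 2, with 1541, was the highest of all libraries. Btnl2 was at 19.1, 20.7 and 16.5 CPM untreated and at 26.6, 39.9 and 11.05 CPM with DSS (log2 change of 0.46, SE 0.38). Without replicate 5 the log2 changes of Btnl1, Btnl2, Btnl4 and Btnl6 became 0.04, 0.85, 0.37 and 0.38, of which that of Btnl2 passed the adjusted p but not the fold limit (edgeR adjusted p = 0.0494), and without replicate 2 they became -1.39, 0.02, -0.72 and -0.74. The coefficient of variation of the Btnl genes was 55.9% to 89.2% in the colitic Tmem173iΔmye group and 2.03% to 26.8% in the other 3 groups. Sectm1b varied by 15.7% in the same 3 colitic libraries, and the mean log2 CPM of 10 general epithelial genes ran from 9.83 to 10.15 in them, at 9.97 in replicate 5. That of 15 colonocyte genes was 8.19 in replicate 5 and 9.07 and 8.89 in replicates 1 and 2. The 17 markers of intraepithelial lymphocytes, none of them at 0 in this group, summed to 43.1 CPM in replicate 5 against 208 and 198 CPM in replicates 1 and 2. The part of these values in the Btnl levels was not tested.

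Without DSS the genotypes were compared in libraries that the choice of genes did not use. Of the 6 members 0 were called, against 0.0% of tested genes, with 720 of 24102 genes at an unadjusted p under 0.05 in edgeR and 8 genes called by DESeq2. Among the members 0 had an unadjusted p under 0.05. The log2 differences of Tmem173iΔmye from Tmem173fl/fl mice ran from -0.29 for Btnl2 (SE 0.20) to 0.20 for Btnl6 (SE 0.15), and with single libraries left out from -0.40 to -0.06 for Btnl2 and from 0.084 to 0.29 for Btnl6. That of Sectm1b was -0.08 (SE 0.15) and that of Sectm1a 0.05 (SE 0.21), each with an edgeR adjusted p of 1.0. Every member overlapped between the untreated genotypes, as 7.35% of tested genes did not. With these SEs equal levels are not shown.

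In colitis the genotypes stood apart in both Sectm1 genes, which is described here without a test because this contrast served to choose Sectm1b. Its 3 colitic Tmem173iΔmye libraries, at 251 to 339 CPM, all lay above the 3 colitic Tmem173fl/fl libraries, at 87.2 to 101 CPM, and the ratio of means was 3.09. The log2 difference was 1.62 (SE 0.19) and stayed between 1.501 and 1.70 with each library left out in turn. Sectm1a likewise did not overlap, at 11.4 to 25.0 against 2.11 to 7.57 CPM, with a ratio of means of 3.79 and a log2 difference of 1.90 (SE 0.48). Single libraries left out gave 1.54 to 2.51, the highest without colitic Tmem173fl/fl replicate 2. These 2 of 6 members had no overlap between the colitic genotypes, nor had 26.8% of tested genes in either direction. In this contrast 2.81% of tested genes passed the threshold.

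The log2 differences of the Btnl genes between colitic genotypes were 0.80 for Btnl6 (SE 0.50), 0.76 for Btnl2 (SE 0.42), 0.71 for Btnl4 (SE 0.47) and 0.18 for Btnl1 (SE 0.65). Replicates 1 and 2 of Tmem173iΔmye mice lay above the colitic Tmem173fl/fl range in Btnl2, Btnl4 and Btnl6, and replicate 5 under it. Without replicate 5 the differences were 1.23, 1.12, 1.11 and 0.68 in the same order. Without replicate 2 they were 0.14, 0.33, 0.05 and -0.71. On the log2 FPKM scale with a pseudocount of 0.1 that of Btnl1 was -0.43, so its direction is not settled by these libraries.

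The difference between the 2 DSS effects, from a fit of all 12 libraries, is likewise a description. It was 1.71 for Sectm1b (SE 0.24), 1.87 for Sectm1a (SE 0.55), 1.07 for Btnl2 (SE 0.50), 0.64 for Btnl4 (SE 0.55), 0.62 for Btnl6 (SE 0.58) and 0.09 for Btnl1 (SE 0.76). With colitic Tmem173iΔmye replicate 2 left out the last 3 turned sign, to -0.04, -0.064 and -0.83, and with replicate 5 left out they were 1.02, 1.03 and 0.56. With single libraries left out that of Btnl2 ran from 0.61 to 1.41. The median difference over the members was 0.86 and was 0.29 without colitic Tmem173iΔmye replicate 2, and 2.55% of tested genes passed the threshold for it.

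**Figure D2:**
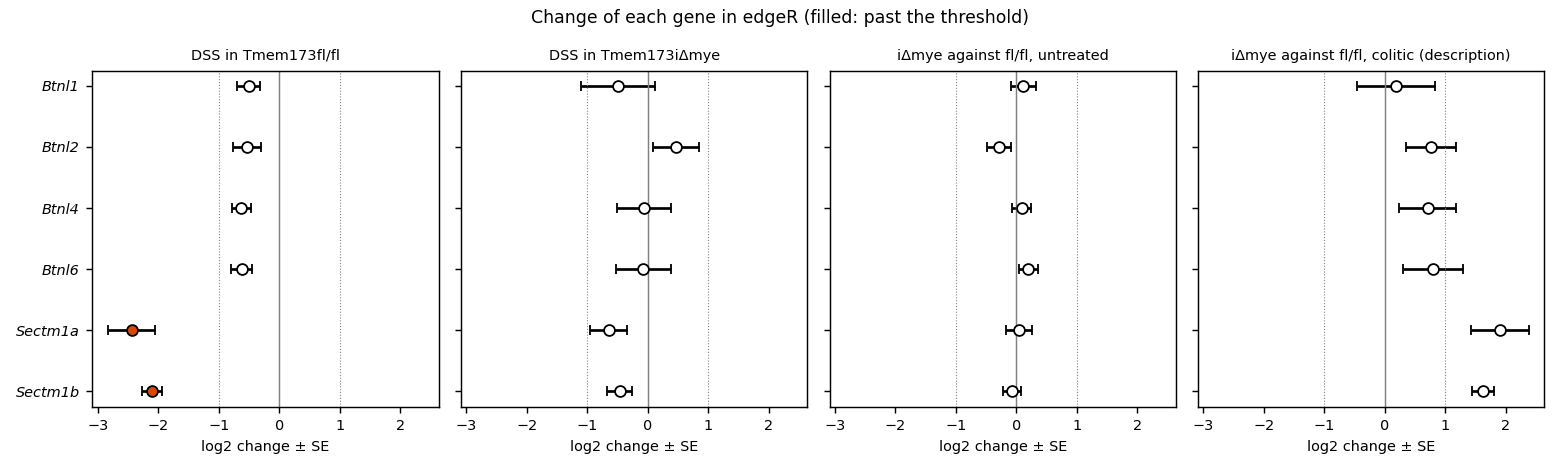
The log2 change of each gene with its SE in the 4 comparisons of groups, fitted in edgeR on 6 libraries each, with dotted lines at a log2 change of 1 in either direction. Filled points passed the threshold, which only Sectm1a and Sectm1b did and only for DSS in Tmem173fl/fl mice; the comparison of colitic genotypes was not tested for these genes.

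Each member was also set against the mean of 10 general epithelial genes of its own library, since some of these fell with DSS in Tmem173fl/fl mice. Of these 10 genes, among them Epcam (log2 change of -1.21, SE 0.21, edgeR adjusted p = 0.001366), 5 were called lower and 0 higher, with a median log2 change of -0.94, and 8 were called lower with colitic replicate 3 left out. In the same comparison 9 of 9 neutrophil, 7 of 8 fibroblast and 6 of 6 endothelial markers were called higher, with summed levels of 47.5 to 107 against 535 to 906 CPM, 1232 to 1423 against 8226 to 10390 CPM and 98.0 to 110.0 against 424 to 585 CPM. Of all tested genes 14.9% were called higher and 7.61% lower. Of 8 T cell and 6 smooth muscle markers 0 were called, and of 6 B and plasma cell markers 1 was called higher. The part of these cell types in the levels of the members was not tested. In whole tissue, fewer epithelial cells and less RNA per epithelial cell cannot be told apart. Relative to these genes Sectm1b was still lower with DSS in Tmem173fl/fl mice, from -1.55, -1.41 and -1.61 on the log2 scale untreated to -2.68, -2.15 and -3.13. Sectm1a went from -5.30, -5.66 and -5.60 to -7.08, -5.79 and -8.20. The mean differences of -1.13 and -1.50 came with groups that do not overlap (exact two-sided permutation p = 0.1 each, the smallest that 3 against 3 allows). That of Sectm1a was -2.12 with colitic Tmem173fl/fl replicate 2 left out and -0.92 with replicate 3 left out.

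For the Btnl genes the mean difference of colitic from untreated Tmem173fl/fl mice relative to this reference was 0.49 for Btnl1, 0.44 for Btnl2, 0.33 for Btnl4 and 0.34 for Btnl6, with overlapping groups (exact two-sided permutation p = 0.3, 0.4, 0.2 and 0.2). With colitic replicate 2 left out these were 0.27, 0.061, 0.17 and 0.092. Thus 2 of 6 members, both lower with DSS, had groups without overlap, among them Sectm1b, whose fall is not independent of its choice. By this measure 2.24% of tested genes were lower and 70.3% higher without overlap, 72.6% in all. Against 15 colonocyte genes, of which 10 were called lower and 1, Car1, higher, 5 did, with Btnl1 at 0.76 and Btnl6 at 0.60 higher and Sectm1b at -0.86, while Sectm1a (-1.24) then overlapped, and 85.3% of tested genes had no overlap. The count also became 5 with untreated Tmem173fl/fl replicate 2 left out, where 75.1% of tested genes had no overlap, and 4 with colitic Tmem173fl/fl replicate 1 left out, where 73.6% had none.

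In Tmem173iΔmye mice the difference relative to epithelial genes was -0.21 for Sectm1b and -0.42 for Sectm1a (exact two-sided permutation p = 0.2 each). That of Btnl1 was -0.78, of Btnl2 0.54, of Btnl4 -0.06 and of Btnl6 -0.13. The groups overlapped in all 6 members, as they did not in 25.7% of tested genes. Against the colonocyte genes Sectm1b differed by -0.024, and Btnl2 by 0.73 with groups that did not overlap, as with 24.1% of tested genes. Single libraries left out gave -0.64 to -0.18 for Sectm1a and -0.32 to -0.16 for Sectm1b, without overlap for Sectm1b when untreated replicate 3 (-0.32) or colitic replicate 2 (-0.25) was left out and for Sectm1a when untreated replicate 1 (-0.55) or colitic replicate 2 (-0.64) was. Without colitic replicate 5 the Btnl differences were 0.19, 1.04, 0.54 and 0.55. The groups of Btnl2, Btnl4 and Btnl6 then did not overlap, nor did those of 39.5% of tested genes. Without colitic replicate 2 the Btnl differences were -1.47, 0.23, -0.53 and -0.62. Btnl1 in replicate 5 lay at -6.87 relative to these genes, against -4.61 to -3.31 in the other 11 libraries, so the general epithelial genes did not share its low level there. Between the colitic genotypes, again without a test, Sectm1b relative to epithelial genes was 0.83 higher in Tmem173iΔmye mice with no overlap. By this measure 0.68% of tested genes were higher and 53.7% lower without overlap, 54.4% in all. Against the colonocyte genes Sectm1b was 0.78 higher with overlap. Relative to epithelial genes Sectm1a was 1.105 higher with overlapping groups, and 0.52 to 1.72 higher with single libraries left out. By this measure the Btnl genes differed by -0.18 for Btnl2 to -1.17 for Btnl1. Leaving out replicate 5 turned the sign for Btnl2 (0.32), Btnl4 (0.27) and Btnl6 (0.39) and gave -0.19 for Btnl1.

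**Figure D3:**
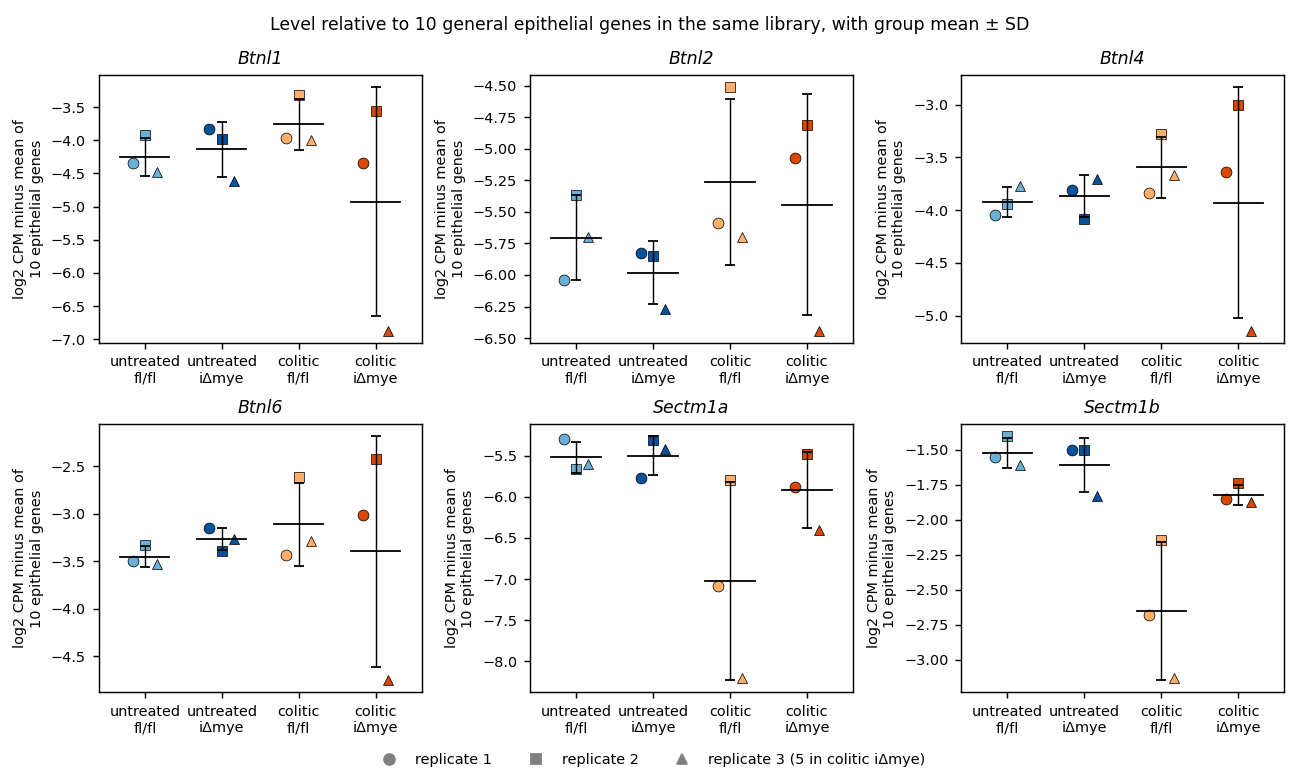
Each gene's log2 CPM minus the mean log2 CPM of 10 general epithelial genes in the same library, by group, with the group mean (bar) and SD (whiskers). For the Sectm1 genes colitic Tmem173fl/fl libraries lie under the untreated ones, and for the Btnl genes replicate 5 of colitic Tmem173iΔmye mice lies under all others.

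Ratios of FPKM within a library compare the transcript levels of related members, not their proteins. Btnl4 stood at 0.611 to 0.837 of Btnl6 in all 12 libraries, replicate 5 of colitic Tmem173iΔmye mice (0.756) included. Btnl1 stood at 0.484 to 0.621 of Btnl6 in untreated and 0.574 to 0.648 in colitic Tmem173fl/fl mice. In untreated Tmem173iΔmye mice this ratio was 0.586, 0.622 and 0.368. In colitic Tmem173iΔmye mice it was 0.372, 0.427 and 0.207, under all 3 colitic Tmem173fl/fl libraries. How often ratios of other genes separate these groups was not tested. Sectm1a stood at 0.0398 to 0.134 of Sectm1b, with its lowest value in replicate 3 of colitic Tmem173fl/fl mice.

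**Figure D4:**
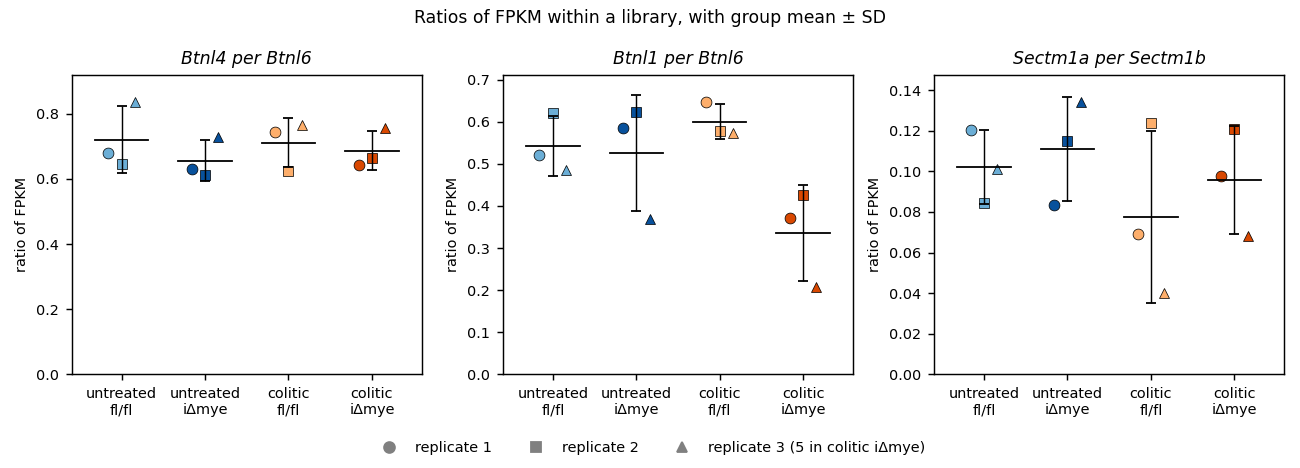
Ratios of FPKM within each library for Btnl4 per Btnl6, Btnl1 per Btnl6 and Sectm1a per Sectm1b, on linear axes from 0, with group mean (bar) and SD (whiskers). The ratio of Btnl4 to Btnl6 stays between 0.611 and 0.837, and that of Btnl1 to Btnl6 is lowest, at 0.207, in replicate 5 of colitic Tmem173iΔmye mice.

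Across the 12 libraries the 4 Btnl genes correlated at 0.705 to 0.978 with each other and at 0.308 to 0.626 with the Sectm1 genes. The libraries come from 4 groups and share DSS and cell makeup, so the Pearson correlations of log2(CPM + 0.5) are a description. Btnl4 and Btnl6 correlated at 0.978, and each was the other's closest gene of the 12480 protein-coding genes compared. Leaving out replicate 5 of colitic Tmem173iΔmye mice gave 0.961. Sectm1a and Sectm1b correlated at 0.945, and at 0.952 without that library. Btnl1 correlated at 0.874 with Btnl6 and at 0.308 with Sectm1b, the latter becoming 0.716 without replicate 5. Without that library the Btnl genes correlated at 0.689 to 0.961 with each other and at 0.562 to 0.767 with the Sectm1 genes, so the ranges then overlapped. After the epithelial mean was subtracted, Btnl and Sectm1 genes correlated at -0.146 to 0.203 with each other, and at -0.219 to 0.139 without replicate 5.

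The genes closest to Sectm1b were Clic5 (0.985), a chloride channel family protein of the brush border, St3gal4 (0.978), a sialyltransferase, Nadsyn1 (0.976), which completes NAD synthesis, Agpat4 (0.976) and the malic enzyme Me2 (0.975). Those closest to Sectm1a were Idnk (0.984), Psmb9 (0.977), a subunit of the immunoproteasome, Apol10b (0.976) and the interferon-inducible pair Parp9 (0.976) and Dtx3l (0.973), of which Parp9 was not among the 5 with a pseudocount of 0.1. With the epithelial mean subtracted, the interferon-inducible genes Zbp1 (0.95) and Ifit2 (0.948) were among the 5 closest to Sectm1a, Ifit2 not with a pseudocount of 0.1. Clic5 (0.959) remained the closest to Sectm1b, with the interferon-inducible Oas1g (0.936) and Oasl2 (0.929) among its 5.

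The genes closest to Btnl1 were the cation channel gene Trpm4 (0.964), Gpatch2 (0.958), the dipeptidase gene Dpep1 (0.954), Prpsap1 (0.947) and Hrc (0.944), and replicate 5 weighed on them, since these correlations were 0.753 to 0.918 without it. With the epithelial mean subtracted H2-T3 (0.962), which codes for the thymus leukemia antigen that binds CD8αα on intraepithelial lymphocytes, was closest to Btnl1, and Cdx2 (0.943) was the fifth, though not among the 5 with a pseudocount of 0.1. Without replicate 5 these correlations were 0.815 and 0.634. H2-T3 was also among the 5 closest to Btnl4 (0.887) and Btnl6 (0.896), at 0.634 and 0.672 without replicate 5. After each other, Btnl4 and Btnl6 were closest to Fbxo38, at 0.954 and 0.943. Btnl2 had the loosest neighbours, led by Cyld (0.893), a deubiquitinase, Apol10a (0.88) and Eci3 (0.864), with the kinase gene Jak2 (0.847) the fourth.

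Genes that act with the members were read from lists of known regulators and partners. HNF4A, HNF4G and CDX factors are known to drive Btnl genes in the gut epithelium. Of 15 epithelial transcription factors 7 were called lower and 0 higher with DSS in Tmem173fl/fl mice (median log2 change of -0.99, against 0.03 for all genes), and 0 in Tmem173iΔmye mice. Of all tested genes 7.61% were called lower in Tmem173fl/fl mice and 0.597% in Tmem173iΔmye mice. Hnf4g changed by -1.63 (SE 0.25, edgeR adjusted p = 0.0007053) and Hnf4a by -1.32 (SE 0.21, edgeR adjusted p = 0.0007921) in Tmem173fl/fl mice. Cdx1, at -0.99, fell just short of the fold limit and was called lower in 12 of 17 alternatives. Cdx2, at -0.62, was called in 0 of 17.

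Interferon genes moved in the direction of the Sectm1 genes. With DSS in Tmem173fl/fl mice 19 of 20 interferon-stimulated genes (median log2 change of -2.73) and 11 of 18 genes of the interferon gamma pathway (median of -1.58) were called lower, and 0 of either list higher. Of all tested genes 7.61% were called lower there. Ifng, at 1.02 to 2.35 CPM untreated and at most 0.62 CPM with DSS, was called lower (edgeR adjusted p = 0.02606). It rests on 0 to 13 counts in the colitic group, and the call was lost when colitic replicate 1, untreated replicate 1 or untreated replicate 3 was left out (edgeR adjusted p = 0.079, 0.0777 and 0.0794). In Tmem173iΔmye mice 14 of the 20 interferon-stimulated genes (median of -1.34) and 1 of the 18 were called lower, against 0.597% of tested genes. The 1 became 0 without colitic replicate 1 or any single untreated replicate. The count of 14 became 5 without colitic replicate 1 and 4, 3 and 3 without untreated replicates 1, 2 and 3, while that of 19 ran from 19 to 20 with single libraries left out.

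The receptors on the lymphocyte side were scarce. Cd7, the receptor of SECTM1, was at 2.31 to 14.0 CPM, lowest in replicate 5 of colitic Tmem173iΔmye mice, and was called in no comparison (log2 change of -0.67, SE 0.23, edgeR adjusted p = 0.04346, with DSS in Tmem173fl/fl mice). The Vγ7 segment Tcrg-V7 had at most 0.48 CPM in every library, and is named here after its values were seen. Of 12 tested partner genes, 2 were called higher and 1 lower with DSS in Tmem173fl/fl mice, and 0 in Tmem173iΔmye mice. Of all tested genes 14.9% were called higher and 7.61% lower in Tmem173fl/fl mice, and 2.08% were called in Tmem173iΔmye mice. The partner counts in Tmem173fl/fl mice thus lie near the shares over all genes. Trdc, the constant segment of the T cell receptor δ chain, was at 1.21, 1.76 and 3.32 CPM untreated and at 8.67, 5.40 and 9.94 CPM with DSS (log2 change of 1.98, SE 0.39, edgeR adjusted p = 0.003169). Tcrg-C4, a γ chain constant segment, changed by -1.20 (SE 0.35, edgeR adjusted p = 0.02169), a call that was lost when colitic replicate 1, untreated replicate 2 or untreated replicate 3 was left out (edgeR adjusted p = 0.0573, 0.079 and 0.0609). Of 17 intraepithelial lymphocyte markers 4 were called lower and 0 higher, led by the granzyme gene Gzmb (log2 change of -2.15, SE 0.24, edgeR adjusted p = 0.0001013). Their summed level was 224 to 255 CPM in untreated and 93.0 to 175 CPM in colitic Tmem173fl/fl mice.

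Of 6 other butyrophilin genes tested, 2 were called lower and 0 higher with DSS in Tmem173fl/fl mice, and 0 in Tmem173iΔmye mice. Of all tested genes 7.61% were called lower and 14.9% higher in Tmem173fl/fl mice. Btnl5-ps and Btnl9 are named after their values were seen. The annotated pseudogene Btnl5-ps was at 190 to 225 CPM in untreated and 95.7 to 138 CPM in colitic Tmem173fl/fl mice (log2 change of -0.81, SE 0.16, edgeR adjusted p = 0.003478, short of the fold limit). Btn1a1, first described in milk fat globules, was called lower at -2.65, a call lost without untreated replicate 3 (edgeR adjusted p = 0.076), and Btnl7-ps at -1.63 (SE 0.36, edgeR adjusted p = 0.005553). In colitic Tmem173iΔmye mice Btnl7-ps was at 10.7, 19.6 and 0.91 CPM, with replicate 2 highest and replicate 5 lowest as for the Btnl genes. Because these pseudogenes share sequence with Btnl4, reads could be split between them. Btnl9, which lies outside this cluster, was at 0.68 to 3.65 CPM with a log2 change of -0.30 (SE 0.43) with DSS in Tmem173fl/fl mice. Among 21 other epithelial ligands and cytokines, 2 were called higher (4 without untreated replicate 2) and 3 lower there. Together these lie near the 22.5% of all tested genes called in either direction. Il33 (3.55) rose most and H60c (-2.81), a ligand of NKG2D, fell most. H60c rests on 2 to 7 counts in the colitic group. Its log2 change ran from -3.65 to -2.41 with single libraries left out and reached -0.54 among the 17 alternatives, of which 16 called it.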

How the data were processed

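RNA of whole colon was sequenced in 12 mice. Per the submitters' processing notes the tools were CASAVA 1.8, fastp, HISAT2 2.0.5, featureCounts 1.5.0-p3 and DESeq2 1.20.0, on GRCm38 (mm10); use of strand is not given in the sources used here. The authors deposited whole-number counts per gene and FPKM values, both used here. The deposited fold changes, p-values and group means, which draw on libraries not analysed here, were not used. A gene was tested if its FPKM reached 0.1 in 3 or more libraries, with edgeR 4.0.16 (glmQLFit, glmQLFTest, TMM) in R 4.3.3 on the groups compared. A call needed a p below 0.05 after Benjamini-Hochberg adjustment and a log2 change of 1 or more in size. The test was tried on simulated data. SEs are the log2 change divided by the square root of F. Exact permutation tests used scipy 1.17.1. DESeq2 1.42.0, limma 3.58.1, other filters, scalings, fits and thresholds, leaving out single libraries and a replicate block were alternatives. P-values measure the spread between mice. From each list, called genes were named, at most 4 per list and comparison, with Cd7, Trdc, Hnf4a, Cdx1, Cdx2, Ifng, Epcam, Tmem173 and others fixed by name, and the 5 genes closest to each member by correlation. The members and lists were chosen with earlier results of these data known. Some items are not reported here.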

Additional observations from a re-analysis of the deposited data

Results flagged for a closer look

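The difference between the 2 DSS effects (Tmem173iΔmye minus Tmem173fl/fl, log2 scale) passed the test of the interaction in edgeR for 7 of the named genes that are no members: the colonocyte genes Car4 (2.15), Slc26a3 (1.86) and Lypd8 (1.73), the cytokine gene Il18 (2.13), the epithelial factor Elf3 (1.07) and the interferon-stimulated genes Oas1a (1.66) and Ifih1 (1.39). Of all tested genes 2.55% passed this test, 225 with a positive and 389 with a negative difference. A negative difference also passed for 5 of 8 fibroblast markers. Genes were named partly because they were called in a comparison, so the 7 are no independent count. Car4 and Lypd8 passed with each of the 12 libraries left out in turn, Oas1a with 9, Ifih1 with 7, Il18 with 4, and Slc26a3 and Elf3 with 3 of them. All 7 differences kept their sign in the alternatives run. No group holds the 4 libraries needed to look for a single outlying value.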

How the results depend on the processing

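The 2 members called with DSS in Tmem173fl/fl mice stayed 2 in the alternatives run, single libraries left out included (2 to 2), except at the adjusted p alone, which gave 4. The count stayed 0 with DSS in Tmem173iΔmye mice (0 to 0) and between untreated genotypes (0 to 0). Signs turned for uncalled changes. In Tmem173iΔmye mice the replicate block gave Btnl4 0.43 and Btnl6 0.36. Untreated replicate 3 and colitic replicate 5 had no same-numbered partner in it, so these values rest on replicates 1 and 2. Leaving out the 3 Xist-high libraries together, an alternative chosen after seeing the data, gave 0.53 and 0.45 in the same mice. Between untreated genotypes that alternative gave Btnl4 -0.072 and Sectm1a -0.17. With single libraries left out, the DSS change in Tmem173iΔmye mice ran from -1.39 to 0.037 for Btnl1, from -0.72 to 0.37 for Btnl4 and from -0.74 to 0.38 for Btnl6, and the untreated difference from -0.062 to 0.33 for Btnl1, -0.062 to 0.19 for Btnl4, -0.076 to 0.24 for Sectm1a and -0.20 to 0.013 for Sectm1b; the cause was not tested. The median interaction of the members, 0.86, ran from 0.29 to 1.22 so. Relative to epithelial genes, 2 members without overlap became 5 with the colonocyte list and 2 to 5 with single libraries left out, where the share of tested genes without overlap went from 72.6% to 85.3% and to 73.6% to 87.7%.

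Between colitic genotypes 27 context genes, those of the lists that are no members, were called, where 2.81% of all tested genes were. Among them 5 of 15 colonocyte genes were higher, and 6 of 8 fibroblast and 5 of 9 neutrophil markers lower. The count was 52 with DESeq2, 1 (pseudocount 0.1) and 11 (pseudocount 1) with limma, and 45 with no filter. One fit of all 12 libraries gave 46, the replicate block 49 and unadjusted p 62. Single libraries left out gave 0 to 40, with 0 without replicate 1, 16 without replicate 2 and 2 without replicate 3 of Tmem173fl/fl, and 2 without replicate 2 of Tmem173iΔmye mice. Library totals as scaling moved the median of all genes with DSS in Tmem173fl/fl mice from 0.03 to 0.17 and turned 198 higher and 480 lower calls between colitic genotypes into 161 and 679. It moved that median from 0.02 to -0.09 between colitic genotypes and from 0.04 to -0.13 for the interaction. Counts over all genes moved more than those of the members. For DSS in Tmem173iΔmye mice edgeR called 501 genes, no filter 1013, DESeq2 1137, limma 41 (pseudocount 0.1) or 74 (pseudocount 1), and one fit of all 12 libraries 981. Between colitic genotypes the same settings gave 678, 1257, 1619, 71, 278 and 1492, and between untreated genotypes edgeR gave 0, no filter 68, DESeq2 8 and limma with a pseudocount of 0.1 gave 3. The interaction gave 614, with no filter 1228, with DESeq2 1375 and with limma 368 (pseudocount 0.1). For DSS in Tmem173fl/fl mice edgeR gave 5422, the adjusted p alone 8544 and limma with a pseudocount of 1 gave 2838.

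Same-numbered samples did not deviate together (correlations of -0.172 to 0.184, for DSS in Tmem173fl/fl mice -0.0633, -0.124 and -0.153, where no sample was closest to its own number). These few correlations gave no sign that the numbers pair the samples, but they cannot exclude it. A replicate block gave 2 members called with DSS in Tmem173fl/fl mice, 0 in Tmem173iΔmye mice and 0 between untreated genotypes, with 4939, 1369 and 94 of all genes. For DSS in Tmem173iΔmye mice and between colitic genotypes that block rests on replicates 1 and 2, the numbers present in both groups. Precision was limited by 3 libraries a group, by 31 to 160 counts of Sectm1a in colitic Tmem173fl/fl mice, and by the spread of the Btnl genes in colitic Tmem173iΔmye mice.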
